A study of Mus musculus with 8 samples.

Results

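The chemokines and receptors that draw T cells, dendritic cells and B cells into lymphoid tissue, and regulatory T cells into tumors, were followed in CT26 tumors of 4 treatment groups. The 9 genes were chosen by name, Ccl17, Ccl22, Ccr4, Ccr8, Ccl19, Ccl21a, Ccr7, Cxcl13 and Cxcr5, and are measured by 11 of the 56605 mouse probes on the array. The line CT26 derives from a colon tumor of the BALB/c strain, and 500000 cells were implanted under the skin of the flank. The study's methods give female BALB/c mice, and the labels of the samples give neither strain, sex nor age. Treatment began at tumor volumes of 100 to 200 mm3 and lasted 2 weeks. The groups received vehicle, TP-16 (named BY001 in the labels, 75 mg/kg by mouth every day), an antibody against PD-1 (50 µg per mouse into the peritoneum, on 2 days a week) or both agents. TP-16 is an antagonist of EP4, a receptor for prostaglandin E2, and was given in carboxymethylcellulose sodium. PD-1 is an inhibitory receptor of T cells, and the methods name clone RMP1-14 for the antibody. Whether vehicle and TP-16 mice also received a control antibody is not stated for these samples. All groups carried the same cell line, and whole tumors were used, so RNA of tumor cells, immune cells and stroma was mixed. Each group had 2 samples from independent replicates, and the labels leave unsaid if tumors were pooled. With so few arrays a group, their number sets the precision.

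Chemokines are small secreted proteins that guide cells carrying the matching receptor. Ccl17 and Ccl22 come mainly from dendritic cells and macrophages and act on Ccr4, which regulatory and helper T cells carry, and Ccr8 marks regulatory T cells of tumors. Ccl19 and Ccl21a, made by stromal and lymphatic endothelial cells of lymphoid tissue, act on Ccr7 of naive T cells and of mature dendritic cells moving to lymph nodes. Cxcl13 leads cells that carry Cxcr5, B cells and follicular helper T cells, into lymphoid follicles.

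The values given are log2 signals relative to the 75th percentile of the array, so that 0 is the 75th percentile and each unit is a doubling. This percentile lay between 371.1 and 733.6 intensity units and was highest on the 2 combination arrays. By the mark of the scanner software, an array had 51.4% to 59.7% of its probes well above background. The median difference of all tested probes from vehicle on this scale was -0.20 in the combination, -0.12 in TP-16 and -0.10 in anti-PD-1. After quantile normalization these medians were -0.01, 0.04 and -0.01. The vehicle arrays lay farthest apart (SD over tested probes of the difference between replicates 0.68, against 0.42 to 0.53 in the other groups). All 8 arrays lay on 1 slide, where slide row cannot be told apart from antibody treatment, nor slide column from TP-16 treatment. Of 8 markers of colon epithelium, 4 (Cdh1, Krt8, Krt18 and Krt20) were well above background on all 8 arrays, Cdx2 on 4, Epcam on 1 and Vil1 and Muc2 on 0. Of the 9 genes, 7 had a probe that passed the filter, which asked for both arrays of some group to be well above background, and were tested, among 21616 genes tested in all. Ccl22 and Ccr4 were not tested.

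**Figure D1:**
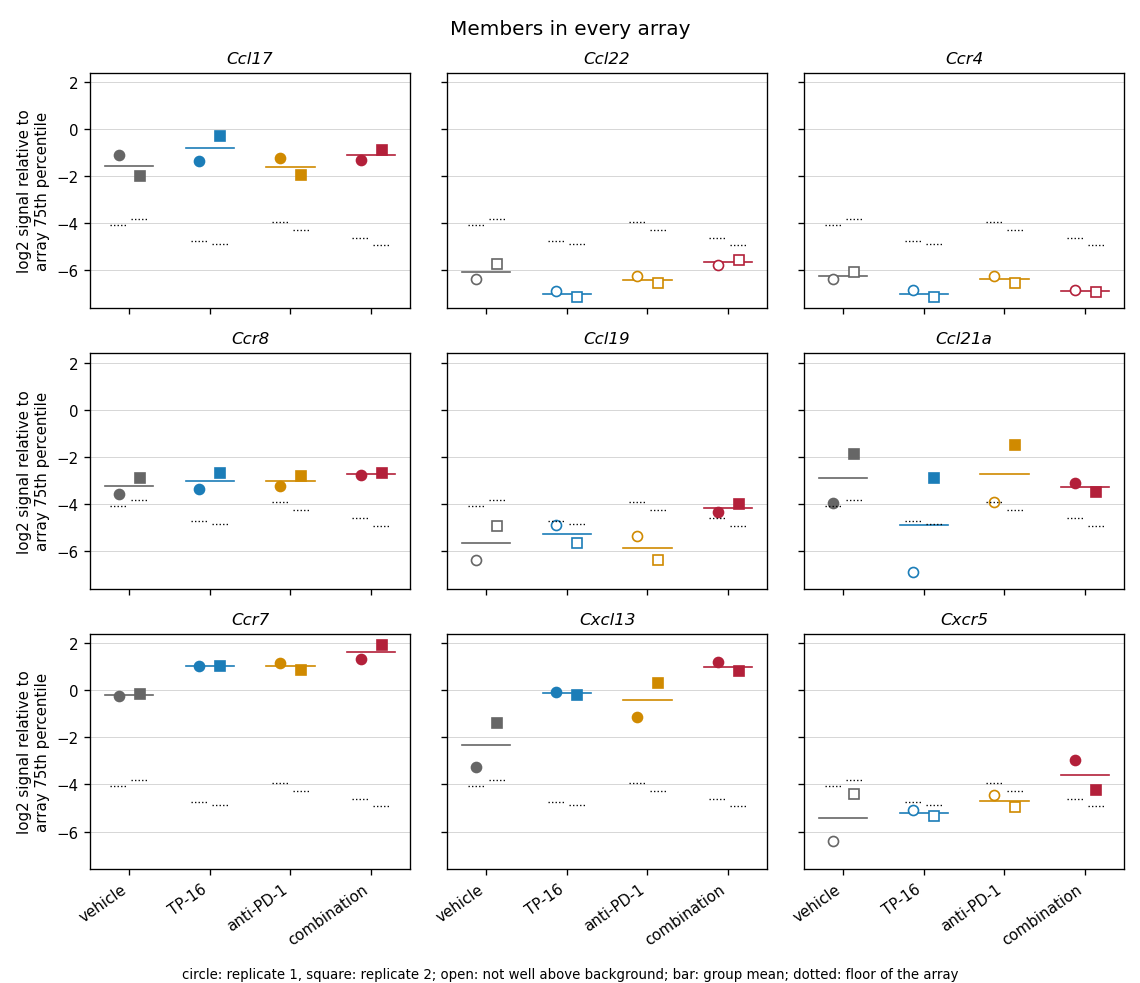
Log2 signal relative to the 75th percentile of the array (y axis) of the 9 genes in each of the 8 arrays, grouped by treatment (x axis). Circles are replicate 1, squares replicate 2, open symbols were not well above background, bars are group means and dotted lines the lowest signal among probes well above background on that array. Ccr7 and Cxcl13 lay lowest in the vehicle arrays and highest in the combination arrays, Ccl22 and Ccr4 lay below the dotted lines on all 8 arrays, and Ccl19 and Cxcr5 were filled only in the combination.

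Promoter sequences of 7 of the 9 genes were found in RefSeq (assembly GRCm38.p6). The 250 bases before the start of Cxcl13 (chr5:95956689-95956938, plus strand), Ccl19 (chr4:42756366-42756615, minus strand) and Ccl17 (chr8:94810203-94810452, plus strand) are printed, 5′ to 3′, because Cxcl13 rose in the combination, Ccl19 was well above background in the combination alone, and Ccl17 did not pass the test in any comparison. Capitals mark matches to the motifs searched on both strands.
Cxcl13: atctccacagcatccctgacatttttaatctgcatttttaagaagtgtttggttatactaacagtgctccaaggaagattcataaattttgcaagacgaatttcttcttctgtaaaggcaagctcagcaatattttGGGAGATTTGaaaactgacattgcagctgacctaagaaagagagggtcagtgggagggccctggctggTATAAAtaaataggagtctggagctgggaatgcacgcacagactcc
Ccl19: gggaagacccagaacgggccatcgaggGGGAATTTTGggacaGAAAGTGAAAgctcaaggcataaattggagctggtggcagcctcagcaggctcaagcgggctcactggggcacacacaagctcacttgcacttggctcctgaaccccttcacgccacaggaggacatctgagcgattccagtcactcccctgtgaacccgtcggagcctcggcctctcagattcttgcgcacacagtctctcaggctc
Ccl17: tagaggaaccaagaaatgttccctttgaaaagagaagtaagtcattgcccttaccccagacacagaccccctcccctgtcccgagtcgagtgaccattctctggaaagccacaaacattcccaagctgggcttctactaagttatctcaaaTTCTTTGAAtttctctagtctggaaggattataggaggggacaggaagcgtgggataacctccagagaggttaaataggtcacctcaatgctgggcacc
The motifs searched were of the NF-kappaB type (GGGA, any 2 bases, then TTCC, or the same ending in TTTG), the STAT type (TTCNNNGAA), the interferon response type (GAAA, any 2 bases, then GAAA) and the TATA box (TATAAA). The NF-kappaB form ending in TTTG was added after both promoters had been read. It matched 114 bases before the start of Cxcl13 and 223 bases before that of Ccl19, and was found in 1.21% of all 32851 promoters of the table in the same 250 bases. Cxcl13 also held TATAAA at 46 bases before the start (12.4% of all promoters), Ccl19 held the interferon response type at 208 bases (2.98%), and Ccl17 held TTCNNNGAA at 99 bases (7.02%). The NF-kappaB form ending in TTCC, found in 1.21% of all promoters, matched none of the 7 promoters, and the printed matches do not overlap each other. Ccl22, Ccr4, Ccr8 and Ccl21a held no match to these letters.

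Ccl17 and Ccl22 are neighbours on chromosome 8, with array probes annotated at chr8:97335770-97335829 and chr8:97274709-97274768 in the mm9 build. The annotation does not say which part of a transcript a probe lies in. Ccl17 (NM_011332) was well above background on all 8 arrays. On the log2 scale its levels were -1.11 and -2.01 in vehicle, -1.34 and -0.29 in TP-16, -1.24 and -1.96 in anti-PD-1, and -1.33 and -0.88 in the combination. The highest value was TP-16 replicate 2, and the ranges of all 4 groups overlapped their neighbours in order of mean. The limma estimate for the combination minus vehicle was 0.46 (SE 0.48, 95% interval -0.73 to 1.65, adjusted p = 0.492), and no comparison of Ccl17 passed the test. The interval leaves room for a fold of 2 in the direction of a rise, so these arrays do not show that Ccl17 was alike in the groups.

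Ccl22 (NM_009137), the other ligand of Ccr4, was not well above background on any array. Its log2 levels were -6.37 and -5.73 in vehicle, -6.87 and -7.13 in TP-16, -6.24 and -6.56 in anti-PD-1, and -5.76 and -5.55 in the combination. The combination arrays held the higher intensities, 11.2 and 15.6 units against 3.93 to 7.12 on the other 6 arrays, and both lay under the lowest signal well above background on the same array, 24.9 and 24.0 units.

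Ccr4 (NM_009916), the receptor of both ligands, has 2 probes on chromosome 9 (chr9:114399467-114399526 and chr9:114400761-114400820). Neither was well above background on any array. The log2 levels of the brighter probe were -6.35 and -6.09 in vehicle, -6.83 and -7.14 in TP-16, -6.22 and -6.53 in anti-PD-1, and -6.85 and -6.94 in the combination, and intensities of both probes stayed between 3.80 and 5.99 units. No fold is given for Ccl22 or Ccr4. Ccr4 was therefore not detectable in whole tumor RNA in any group on this array, while its ligand Ccl17 was.

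Ccr8 (NM_007720, chr9:120003941-120004000) was well above background on all 8 arrays. The log2 levels ran -3.57 and -2.91 in vehicle, -3.39 and -2.70 in TP-16, -3.24 and -2.81 in anti-PD-1, and -2.77 and -2.69 in the combination. Both combination arrays lay above both vehicle arrays, which held in this direction for 23.1% of all tested genes (73.4% in either direction), and TP-16 and anti-PD-1 overlapped vehicle. The combination minus vehicle was 0.51 (SE 0.32, 95% interval -0.27 to 1.30, adjusted p = 0.256) and did not pass the test. With quantile normalization the difference was 0.90 (adjusted p = 0.0765), and with normexp background correction it was -0.072.

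The ligands of Ccr7 lie together on chromosome 4. The Ccl19 probe is annotated on the plus strand in mm9, while the printed Ccl19 promoter lies on the minus strand in GRCm38.p6. This difference was not resolved, so the signal is not shown to be that of Ccl19 alone. Ccl19 (NM_011888, chr4:42250105-42250164) was not well above background on any vehicle, TP-16 or anti-PD-1 array and was well above background on both combination arrays. Its log2 levels were -6.36 and -4.93 in vehicle, -4.90 and -5.67 in TP-16, -5.38 and -6.37 in anti-PD-1, and -4.36 and -3.99 in the combination. Both combination arrays lay above all 6 others, and the group means were -5.65, -5.29, -5.87 and -4.18. Against the floor of the TP-16 arrays, which is the lowest signal well above background there, Ccl19 was at least 1.54-fold higher in the combination (limma, adjusted p = 0.313). Against vehicle and anti-PD-1 the combination mean lay under the floor of those arrays, so no fold is given. The limma fit, which uses the values below background as they stand, called Ccl19 with unadjusted but not with adjusted p against vehicle (adjusted p = 0.0989) and against anti-PD-1 (adjusted p = 0.143). The call against vehicle was lost without vehicle replicate 1 (0.76 on the log2 scale), without either TP-16 array or either combination array, and with the replicate block, no filter on dim probes, other moderation, the 2 groups alone or the methods' t-test. The difference was 2.19 without vehicle replicate 2, and 2.58 (adjusted p = 0.0145, called) with quantile normalization or the authors' log2 values. With normexp background correction the combination minus vehicle was -0.16 and the combination minus anti-PD-1 was -0.15.

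Ccl21a (NM_011124, chr4:42231835-42231894) differed more between the 2 TP-16 arrays than between the group means. Its log2 levels were -3.95 and -1.89 in vehicle, -6.91 and -2.88 in TP-16, -3.93 and -1.50 in anti-PD-1, and -3.10 and -3.50 in the combination. TP-16 replicate 1 and anti-PD-1 replicate 1 were not well above background, and the ranges of all groups overlapped. The combination minus vehicle was -0.38 (SE 1.51, 95% interval -4.10 to 3.33, adjusted p = 0.861), and it was 0.64 without vehicle replicate 2. The probe is also assigned to near-identical gene copies, so its signal cannot be given to Ccl21a alone. The arrays with the higher Ccl21a signal in the TP-16 and anti-PD-1 groups were also those with a higher summed level of a skin list, made of Krt5, Krt10, Krt14 and Cd207 (27.7 against 2.40 in TP-16, 28.1 against 3.04 in anti-PD-1, in multiples of the 75th percentile). This summed level was 3.57 and 5.015 in vehicle and 2.42 and 2.10 in the combination, and its part in the Ccl21a values was not tested. Within these groups Krt5 and Krt14 differed between replicates with SDs of 3.80 to 5.56, and Cd207, the Langerhans cell marker, with SDs of 0.38 in TP-16 and 0.063 in anti-PD-1.

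Ccr7 (NM_007719), the receptor of Ccl19 and Ccl21a, was well above background on all 8 arrays with both of its probes on chromosome 11. The brighter probe (chr11:99005551-99005610) had log2 levels of -0.22 and -0.14 in vehicle, 1.04 and 1.05 in TP-16, 1.16 and 0.86 in anti-PD-1, and 1.34 and 1.94 in the combination. All 6 treated arrays lay above both vehicle arrays, and both combination arrays lay above the 4 single-agent arrays. Taken by pairs of groups, separation in this direction held for 15.6% to 23.1% of all tested genes. Ccr7 rose 3.54-fold in the combination against vehicle (log2 1.82, SE 0.22, adjusted p = 0.0102). In RNA of whole tumors, more cells of a type and more RNA per cell cannot be told apart, nor can fewer cells and less RNA per cell where a level is lower. With unadjusted but not with adjusted p, limma also called Ccr7 against vehicle in TP-16 (log2 1.23, SE 0.22, adjusted p = 0.0834) and in anti-PD-1 (log2 1.19, SE 0.22, adjusted p = 0.215). The dimmer probe (chr11:99005513-99005538 in part) gave 1.68 in the combination (adjusted p = 0.0123), 1.20 in TP-16 and 1.12 in anti-PD-1. Its levels ran from -3.19 to -2.82 in vehicle and from -1.70 to -0.95 in the combination.

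The combination arrays lay above each single agent by 0.60 (TP-16) and 0.63 (anti-PD-1) on the log2 scale for the brighter Ccr7 probe (adjusted p = 0.196 and 0.150). Both differences are under a fold of 2, and the departure from additivity was -0.60 (95% interval -1.36 to 0.17, adjusted p = 0.760). Without combination replicate 2, which held the highest Ccr7 level, the combination minus vehicle was 1.52 (adjusted p = 0.0650), and it was 2.12 without combination replicate 1 (adjusted p = 0.0228). With only the vehicle and combination arrays in the fit, its adjusted p was 0.0635.

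Cxcl13 (NM_018866, chr5:96389861-96389920), whose promoter is printed above, had the widest span among the 4 genes well above background on all 8 arrays. On the log2 scale Cxcl13 stood at -3.27 and -1.37 in vehicle, -0.07 and -0.18 in TP-16, -1.13 and 0.31 in anti-PD-1, and 1.21 and 0.80 in the combination. Both vehicle arrays lay below all 6 treated arrays, and both combination arrays lay above the 4 single-agent arrays. By pairs of groups, such separation held for 15.6% to 23.1% of all tested genes. Cxcl13 rose 10.0-fold in the combination against vehicle (log2 3.33, SE 0.71, adjusted p = 0.0215). The vehicle arrays differ by almost as much as vehicle and TP-16 do in mean, and the difference was 2.38 without vehicle replicate 1 and 4.27 without vehicle replicate 2. With normexp background correction it was 2.42 (adjusted p = 0.0045). Without combination replicate 1 it was 3.12 (adjusted p = 0.0811), and without combination replicate 2 it was 3.53 (adjusted p = 0.102). With the 2 groups alone in the fit, the adjusted p was 0.0676, and with the methods' t-test Cxcl13 was not called with unadjusted or adjusted p (adjusted p = 0.223).

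With unadjusted but not with adjusted p, limma called Cxcl13 against vehicle in TP-16 (log2 2.19, SE 0.71, adjusted p = 0.138) and in anti-PD-1 (log2 1.91, SE 0.71, adjusted p = 0.325). With single arrays left out these ran from 1.24 to 3.14 and from 0.96 to 2.86, lowest without vehicle replicate 1 and highest without vehicle replicate 2. The call in TP-16 was lost without vehicle replicate 1 or either TP-16 array. The call in anti-PD-1 was lost without vehicle replicate 1, anti-PD-1 replicate 2, or any single TP-16 or combination array. The combination lay 1.13 above TP-16 (95% interval -0.62 to 2.89, adjusted p = 0.399) and 1.42 above anti-PD-1 (95% interval -0.34 to 3.17, adjusted p = 0.265), and neither passed the test. The departure from additivity was -0.78 (95% interval -3.26 to 1.70, adjusted p = 0.903).

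Cxcr5 (NM_007551, chr9:44320071-44320130), the receptor of Cxcl13, was not well above background on any of the 6 other arrays and was well above background on both combination arrays. Its log2 levels were -6.40 and -4.42 in vehicle, -5.07 and -5.35 in TP-16, -4.47 and -4.95 in anti-PD-1, and -2.96 and -4.22 in the combination. Both combination arrays lay above the other 6, combination replicate 2 by a small margin over vehicle replicate 2, and the group means were -5.41, -5.21, -4.71 and -3.59. Against the floors of the other arrays, Cxcr5 was at least 1.28-fold higher in the combination than in vehicle (called with unadjusted p, adjusted p = 0.0990). It was at least 2.32-fold higher than in TP-16 (adjusted p = 0.249) and at least 1.43-fold higher than in anti-PD-1 (adjusted p = 0.361). Combination replicate 2 alone lay under both vehicle floors (-4.08 and -3.82) and under the mean anti-PD-1 floor, so the bounds against vehicle and anti-PD-1 rest on combination replicate 1. The bound against TP-16 was 1.49-fold with combination replicate 2 alone and 3.59-fold with combination replicate 1 alone. The call against vehicle was lost when any 1 of 6 of the 8 arrays was left out, all but vehicle replicate 2 and combination replicate 2, and with the replicate block, no filter on dim probes, the 2 groups alone or the methods' t-test. The difference was 0.83 without vehicle replicate 1, 2.81 without vehicle replicate 2 and 1.19 without combination replicate 1. With normexp background correction the combination minus vehicle was -3e-04, and with quantile normalization it was 2.92 (adjusted p = 0.0151).

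**Figure D2:**
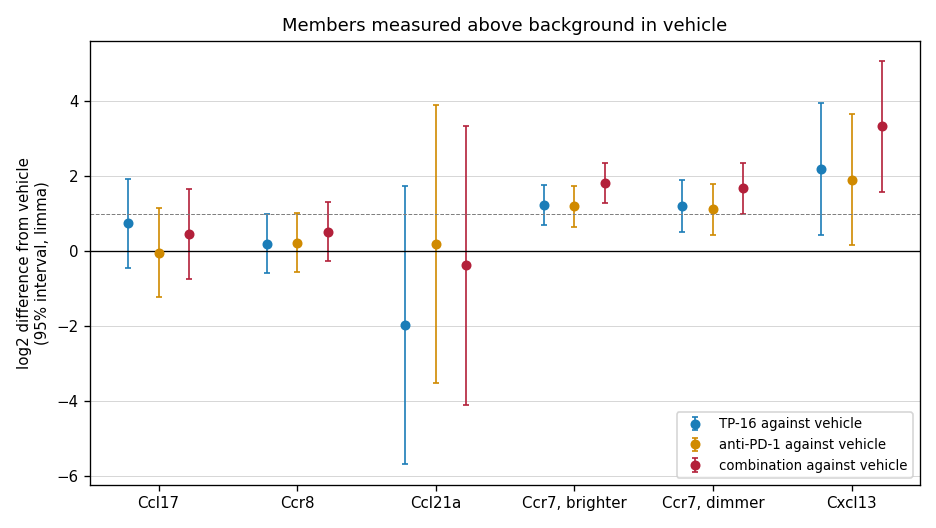
Log2 difference from vehicle (y axis) of the genes that were well above background on both vehicle arrays (x axis, with both Ccr7 probes), in each treated group. Points are limma estimates from 2 arrays per group, bars are 95% intervals, the solid line is no difference and the dashed line a fold of 2. The intervals of Ccr7 and Cxcl13 lie above 0 in all 3 comparisons, and those of Ccl17, Ccr8 and Ccl21a include 0.

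Counted over the 7 tested genes, 4 were called higher and 0 lower in the combination against vehicle at a fold of at least 2 with unadjusted p of at most 0.05 (Ccl19, Ccr7, Cxcl13 and Cxcr5). At this threshold 17% of all tested genes were called, 6.63% as higher. With adjusted p, 2 of the 7 were called higher (Ccr7 and Cxcl13), against 14.2% of all tested genes and 5.57% as higher. Ccl19 and Cxcr5 entered the test only through the combination arrays, the group in which they were high, so the count of 4 is no support on its own. Among the 4 genes above background on all 8 arrays (Ccl17, Ccr8, Ccr7 and Cxcl13), 2 were called. The share over all genes above background on all 8 arrays is not given, so this count has nothing to be set against.

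TP-16 against vehicle called 2 of the 7 genes at unadjusted p (Ccr7 and Cxcl13, both higher), against 6.67% of all tested genes, 1.55% as higher. Anti-PD-1 against vehicle called 2 of the 7, also Ccr7 and Cxcl13 and both higher, against 4.14% of all and 1.89% as higher. With adjusted p, limma called 0 of the 7 in either comparison, against 0.0555% of all tested genes in TP-16 and 0.074% in anti-PD-1. Both treated arrays lay above both vehicle arrays for these genes, which held for 16.5% of all tested genes with TP-16 and 15.6% with anti-PD-1. The 3 comparisons share the vehicle arrays and are not independent of one another.

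The combination against TP-16 called 0 of the 7 genes with limma at a fold of 2, while 4.87% of all tested genes were called, 3.98% as higher. At unadjusted p alone, without the fold, 1 of the 7 passed (Ccr7), against 23.7% of all, and the methods' t-test called 1 at a fold of 2, against 1.86%. The combination against anti-PD-1 called 1 (Ccl19), against 4.7% of all and 2.38% as higher, and since Ccl19 entered the test only through the combination arrays this count is no support either. Both combination arrays lay above both TP-16 arrays for 23% of all tested genes and above both anti-PD-1 arrays for 23.1%. No share is given for the joint orders of all groups described for Ccl19, Ccr7, Cxcl13 and Cxcr5. Departure from additivity, the effect of both agents less the sum of their single effects, was called for 0 of the 7 with limma at a fold of 2, against 3.28% of all tested genes, 2.79% as higher, and for 0 of the 7 at unadjusted p alone, against 7%.

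Other genes that act on these axes were read from a list of 29, of which 25 were tested. In the combination against vehicle, 7 were called higher and 0 lower with adjusted p, and 10 higher and 1 lower with unadjusted p. The median of the list was 0.65. Ltb, the lymphotoxin chain that drives lymphoid tissue formation, rose by 2.41 on the log2 scale (SE 0.56, adjusted p = 0.0259). Ccl1, the classical ligand of Ccr8, rose by 2.34 (SE 0.31, adjusted p = 0.0102), from a mean of -2.70 in vehicle to -0.36 in the combination (1.496 with normexp correction). Il7r, the interleukin 7 receptor of T cells, rose by 2.24 (SE 0.33, adjusted p = 0.0109).

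Icam1, an adhesion molecule of endothelium and antigen-presenting cells, rose by 1.96 (SE 0.37, adjusted p = 0.0158). Cxcl12, the stromal ligand of Cxcr4, rose by 1.80 (SE 0.40, adjusted p = 0.0232). Ackr1, a receptor of venules that takes up chemokines without signalling, rose by 1.59 (SE 0.29, adjusted p = 0.0149), and by 0.96 with normexp correction, which is under a fold of 2 and ends the call. Ccl8, a ligand of mouse Ccr8, rose by 1.32 (SE 0.28, adjusted p = 0.0204) from a mean of 6.42, and by 1.99 with quantile normalization. These 7 genes are all above background on all 8 arrays.

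Receptors that take up these chemokines without signalling were not called, apart from Ackr1. Ackr2, which takes up Ccl17 and Ccl22, had means of -2.20 in vehicle and -1.95 in the combination (adjusted p = 0.189). Ackr4, which takes up Ccl19 and Ccl21, was well above background on 0 arrays, and no probe was named for Ccl21b or Ccl21c. With adjusted p the count of 7 in this list became 4 without combination replicate 1, 0 without combination replicate 2, and 12 without vehicle replicate 2.

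**Figure D3:**
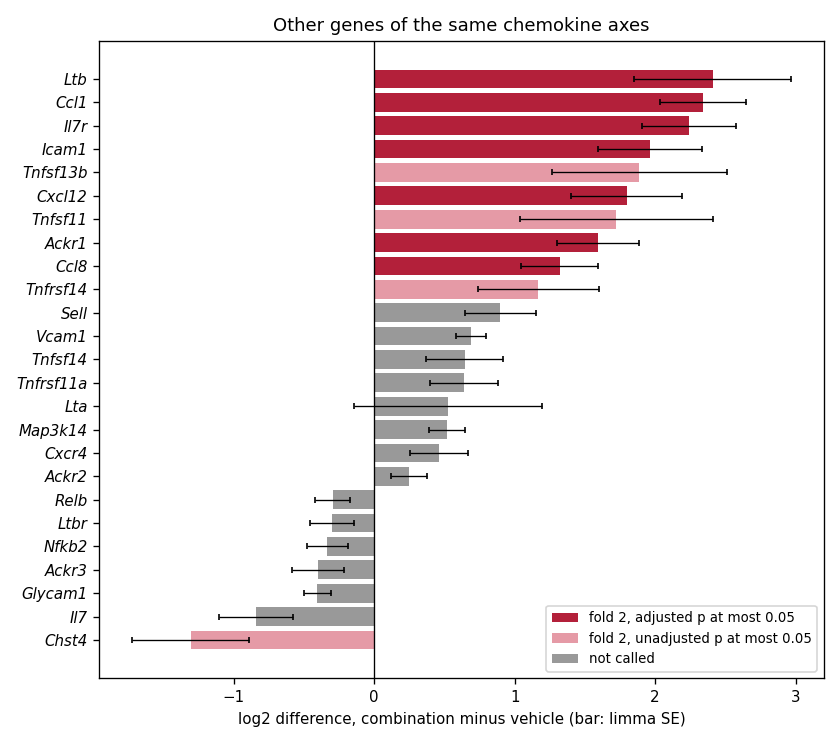
Log2 difference of the combination from vehicle (x axis) for the 25 tested genes of the same chemokine axes that are not among the 9 (y axis). Bars are limma estimates with their SE, dark red marks a fold of 2 with adjusted p of at most 0.05, light red the same with unadjusted p, and grey genes not called. The 7 dark bars run from 1.32 (Ccl8) to 2.41 (Ltb), and Chst4 alone is called lower.

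Cells that carry these receptors were read from marker lists. Of 10 T cell genes, 9 were called higher in the combination against vehicle with unadjusted p and 6 with adjusted p, a count that was 0 without combination replicate 2. Cd3e, a chain of the T cell receptor complex, rose by 1.81 (SE 0.43, adjusted p = 0.0273). The summed level of the list ran from 5.31 to 17.6 in vehicle, 25.1 to 30.8 in TP-16, 23.4 to 30.02 in anti-PD-1 and 37.9 to 65.4 in the combination, in multiples of the 75th percentile. Like Ccr7 it was lowest in vehicle and highest in the combination, and its part in the Ccr7 values was not tested.

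Of 11 regulatory T cell genes, 8 were called higher in the combination with adjusted p and 0 lower. Foxp3, the transcription factor that defines these cells, was not among them, with means of -2.12 in vehicle, -2.82 in TP-16, -2.58 in anti-PD-1 and -2.33 in the combination (combination against vehicle adjusted p = 0.570). The 8 genes were Ikzf2, Ikzf4, Lrrc32, Izumo1r, Tnfrsf4, Tnfrsf18, Il2ra and Entpd1. At least the last 4 are also used by activated T cells or myeloid cells, and none of the 8 is taken to mark regulatory T cells alone. Izumo1r rose by 2.27 (adjusted p = 0.0145) and Ikzf2 by 1.59 (adjusted p = 0.0239). Without combination replicate 2 the count was 0, without combination replicate 1 it was 3, and without vehicle replicate 1 it was 4. The summed level of the list was 3.76 to 6.15 in vehicle and 11.9 to 16.25 in the combination.

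Of 10 dendritic cell genes, 9 were called higher with unadjusted p and 7 with adjusted p, and without combination replicate 2 the latter count was 0. Flt3, the growth factor receptor of dendritic cells, rose by 2.96 (SE 0.35, adjusted p = 0.0102), and Zbtb46, a transcription factor of classical dendritic cells, was called too (adjusted p = 0.0169). Zbtb46 was not well above background on either vehicle array, and against their floors it was at least 2.31-fold higher in the combination. With normexp correction Flt3 gave 1.62, and Zbtb46 gave a log2 difference of 0.20 and was not called (adjusted p = 0.212), while with quantile normalization it gave 2.58. H2-Ab1, a class II antigen-presenting molecule that B cells and macrophages also carry, made up most of the summed level of the list, and was called with unadjusted but not with adjusted p (adjusted p = 0.0521). Without H2-Ab1, a sum chosen after seeing the data, the level ran from 1.85 to 3.92 in vehicle and from 12.7 to 18.65 in the combination. Of 10 genes of mature dendritic cells, the cells known for Ccr7, Ccl17 and Ccl22, 3 were called higher with adjusted p, and 0 to 4 with single arrays left out, 0 without combination replicate 2. The 3 called genes were Ccl5, Cd274 and Cd83. Cd83 rose by 1.12 (SE 0.32, adjusted p = 0.0459, 0.0591 with quantile normalization and 0.0589 with the authors' log2 values). Of the 10 differences, 7 lay above 0, and those of Fscn1, Socs2 and Apol7c lay below it. Fscn1, the actin-bundling protein of these cells, had means of 1.75 in vehicle and 1.495 in the combination (adjusted p = 0.126). Socs2 differed by -0.77 (adjusted p = 0.0144), under a fold of 2 and so not called, and Apol7c by -0.0067. The summed level of the mature list ran from 17.2 to 21.9 in vehicle and from 82.0 to 125.7 in the combination. Ccl5, which T cells also make, is one of its genes and rose by 4.05 on the log2 scale. Without Ccl5, a sum chosen after seeing the data, it ran from 13.7 to 16.2 in vehicle and from 25.0 to 32.1 in the combination.

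The B cell genes, whose cells carry Cxcr5, moved in both directions. Of 8 tested, 3 were called lower in the combination with adjusted p (Cd79a, Ms4a1 and Pax5) and 1 higher (Fcrla), and with quantile normalization 1 was lower and 2 higher. Without combination replicate 2 both counts were 0. Cd79a was well above background on no combination array and was at least 2.27-fold lower there than in vehicle, and Fcrla was so on no vehicle array and was at least 4.92-fold higher in the combination. Pax5 was well above background on both vehicle arrays and 1 combination array, and its combination mean (-5.27) lay under the floors of the combination arrays. Ms4a1, the surface protein CD20, fell by 2.50 on the log2 scale (SE 0.43, adjusted p = 0.0133), and by 1.69 with normexp correction. Of 6 genes of follicular helper T cells, 3 were called higher with adjusted p, Icos, Pdcd1 and Sh2d1a, which other activated T cells also carry. Of the rest, Bcl6 differed by 0.40 (adjusted p = 0.0388) and Cd200 by 0.86 (adjusted p = 0.0725), both under a fold of 2. Il21, a cytokine of these cells, had means of -3.76 in vehicle and -4.75 in the combination (adjusted p = 0.0107, not called). It was well above background on both vehicle arrays and on 1 of 2 combination arrays, so the size of its difference is not settled. Cr2, a marker of follicular dendritic cells and B cells, had means of -1.65 in vehicle and -2.74 in the combination (adjusted p = 0.141). The part of these lists in the Cxcl13 and Cxcr5 values was not tested.

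Of 6 lymphatic endothelium genes, 3 were tested and 0 were called by limma in any comparison, with adjusted or unadjusted p. Lyve1 had means of 0.95 in vehicle and -0.43 in the combination (adjusted p = 0.177). Prox1 was well above background on 2 arrays, Flt4 on 0. Cd207, the marker of Langerhans cells, had means of -2.71 in vehicle and -2.88 in the combination (adjusted p = 0.862), and 0 of the 4 tested genes of its list were called in any comparison. Of 5 genes of follicular dendritic and reticular stroma 0 were called in any comparison, with adjusted or unadjusted p. Of 7 macrophage genes, 4 were called higher and 0 lower in the combination against vehicle with adjusted p. Of 5 tested colon epithelium genes, 0 were called higher and 2 lower.

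**Figure D4:**
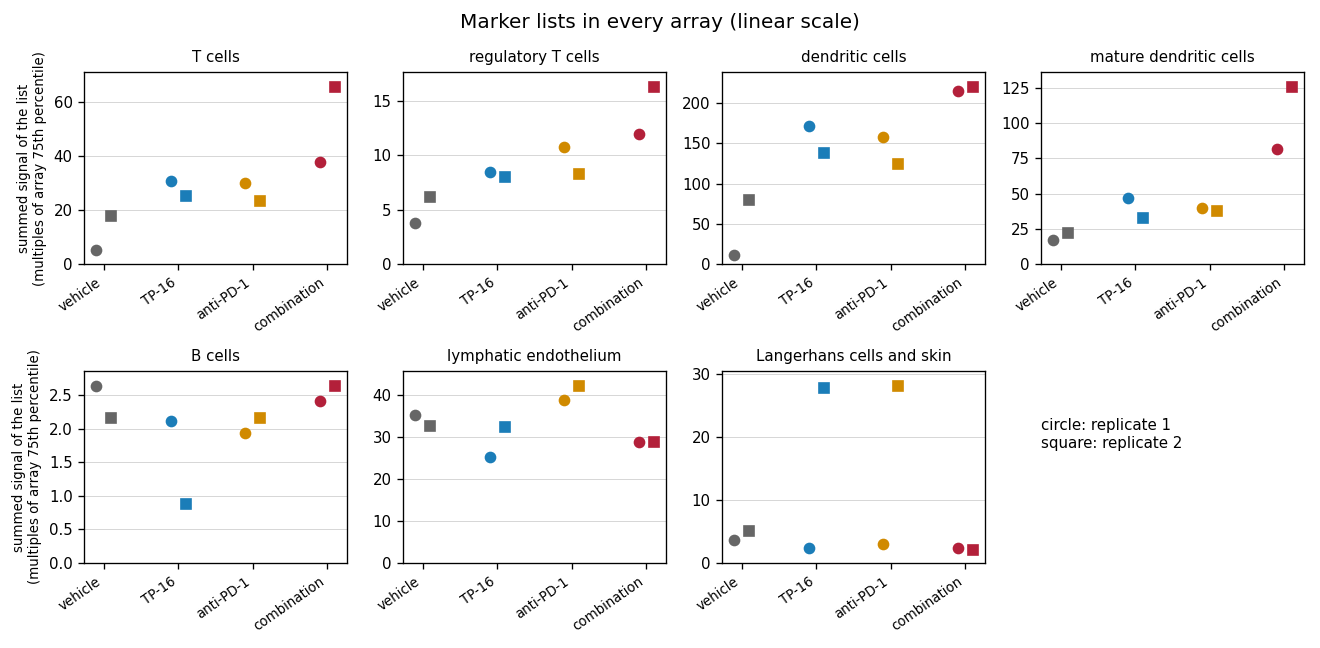
Summed signal of the tested genes of 7 marker lists (y axis, linear, in multiples of the 75th percentile of the array) in each array, by group (x axis). Circles are replicate 1 and squares replicate 2. T cell, regulatory T cell and dendritic cell lists lie lowest in vehicle and highest in the combination, and the B cell list does not. Single genes carry much of some sums, H2-Ab1 84.1 to 96.1% of the dendritic cell list and Pdpn 91.7 to 98.5% of the lymphatic list. Ccl5 carries 20 to 74.5% of the mature dendritic cell list and Cd79b 7.81 to 62.9% of the B cell list. Krt10 carries 18.4 to 94% of the list of Langerhans cells and skin, which stands out in TP-16 replicate 2 (27.7) and anti-PD-1 replicate 2 (28.1).

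For the 4 genes measured above background on all 8 arrays, the genes with the closest pattern were sought among 18421 genes, by the mean absolute difference of mean-centred log2 values over the 8 arrays. Closest to Ccr7 were Mx1 (0.09), Cd24a (0.10) and Ifi205 (0.12), where the median over all genes was 0.62. Closest to Cxcl13 were the transcript ENSMUST00000103410 (0.25), Gbp7 (0.33) and Gbp9 (0.37), with a median of 1.15. Closest to Ccl17 were A130010C12Rik (0.21), Aspn (0.23) and Nbas (0.24), with a median of 0.47. Closest to Ccr8 were A730043L09Rik (0.11), Gm10575 (0.12) and 9330133O14Rik (0.12), with a median of 0.36. The 8 arrays share the same 4 groups, so these distances describe these libraries only.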

How the data were processed

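Total RNA of whole CT26 tumors was hybridised, labelled with Cy3, to 8 one-colour Agilent SurePrint G3 mouse arrays. The sample labels name the mirVana and RNeasy kits, the study's methods TRIzol. The deposited scanner files hold intensity values, from which the authors' software (Agilent Feature Extraction 10.7.1.1, per the submitters' processing notes) had subtracted background. A deposited log2 table, made in GeneSpring according to the methods, served as an alternative.

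The processed intensities were divided by the 75th percentile of their array and put on the log2 scale. Control spots and spots with an outlier mark were left out, and spots of a probe were averaged. The filter kept the 31912 probes that were well above background throughout some group. The probe with the highest mean stood for a gene. Limma 3.58.1 (R 4.3.3, package data.table, version 1.17.8) was fitted to all 4 groups with 4 residual degrees of freedom. P-values were adjusted over all 31912 tested probes by the Benjamini-Hochberg method, and shares were then counted over 21616 genes. The call, a fold of 2 and p of 0.05, follows the methods' threshold. The limma p-values set a difference of means against the spread between these samples, shared over all groups. Pooling of tumors is unstated, so this spread need not be that between mice. The fit was tested on simulated data. Figures used Python 3.11.15 and matplotlib 3.10.9.

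All 9 genes with all their probes were reported. Of other genes on the same axes, those called with adjusted p in the combination and the other ligands and receptors were named, and of marker lists the genes set in the plan, of which 1 is not reported here. The colon epithelium and keratin genes, Chst4, Ccl5, Cd274, Socs2, Apol7c and Cd79b were chosen after their values were seen. So were the genes named by list in the counts of regulatory T, follicular helper T and B cells. The genes and lists were chosen with earlier results of these data known. The alternatives were quantile normalization, normexp correction (offset 50), the authors' log2 values, other filters, probe averaging, other moderation, a fold of 1.5, the replicate block, fits of the compared groups alone, the methods' t-test and leaving out each array.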

Additional observations from a re-analysis of the deposited data

How the results depend on the processing

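With 2 arrays per group, most counts moved with the processing, while Ccr7 and Cxcl13 kept their direction in the comparisons with vehicle under every alternative run. The count of genes called with adjusted p in the combination against vehicle was 2, and was 4 with quantile normalization or the authors' log2 values, 0 with the fit of the compared groups alone or the methods' t-test, and 0 to 4 when single arrays were left out. With unadjusted p that comparison called 4, and 2 with normexp correction, with no filter on dim probes, with probes above background on all 8 arrays or with the compared groups alone, 1 with the t-test, and 2 to 4 with single arrays left out. TP-16 against vehicle called 2, and 4 with quantile normalization or the authors' values, 1 with the t-test and 1 to 2 with arrays left out. Anti-PD-1 against vehicle called 2, and 1 with the compared groups alone or the t-test, and 1 to 3 with arrays left out. The combination against TP-16 called 0, and 1 with quantile normalization, the authors' values, no filter, the t-test or a fold of 1.5, 3 with the compared groups alone and 0 to 2 with arrays left out. The combination against anti-PD-1 called 1, and 2 with quantile normalization, the authors' values or a fold of 1.5, 0 with the t-test or probes above background on all 8 arrays, and 0 to 2 with arrays left out. Departure from additivity called 0, and 1 with no filter and 0 to 2 with arrays left out. The causes were not tested, apart from Ccl19 and Cxcr5 having no value where a probe had to be above background on all 8 arrays.

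With other moderation, the combination against vehicle lost the unadjusted call of Ccl19 and kept those of Ccr7, Cxcl13 and Cxcr5. With the replicate block, it called 2 genes with unadjusted p in place of 4, and no other count of called genes among the 9 moved. The numbers were not taken to pair the arrays, since no label gives them a shared source and the correlations of same-numbered deviations ran from -0.19 to 0.29, over 0.1 in 4 of the 6 pairs of groups, which does not show that no pairing exists. All 8 arrays lay on 1 slide, so no slide block was possible.

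The following differences changed sign. Normexp correction gave, against vehicle, -0.22 for Ccl19, -0.16 for Ccr8 and -0.42 for Cxcr5 with TP-16, and -0.16 for Ccl19, -0.072 for Ccr8, -3e-04 for Cxcr5 and -0.037 for Ackr2 with the combination. For the combination minus anti-PD-1 it gave -0.15 for Ccl19, -0.11 for Ccr8 and -0.029 for Cxcr5. Quantile normalization and the authors' values gave 0.039 and 0.040 for Ccl17 and 0.77 each for Ccl19 (anti-PD-1 against vehicle), 0.041 and 0.042 for Cd207 (combination against vehicle), -0.29 each for the additivity of Ccr8, and -0.17 and -0.18 for that of Cxcr5.

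With single arrays left out, differences that changed sign were, for TP-16 against vehicle, Ccl19 (-0.35 to 1.08), Ccl21a (-4.00 to 0.038), Ccr8 (-0.14 to 0.54) and Cxcr5 (-0.79 to 1.19). For anti-PD-1 against vehicle they were Ccl17 (-0.49 to 0.41), Ccl19 (-0.94 to 0.49), Ccl21a (-1.01 to 1.41), Ccr8 (-0.11 to 0.55) and Cxcr5 (-0.29 to 1.69). Against TP-16 the combination gave Ccl17 -0.81 to 0.24, Ccl21a -0.42 to 3.61 and Ccr8 -0.028 to 0.66. Ccl21a gave -1.80 to 0.63 against anti-PD-1 and -1.41 to 0.64 against vehicle. Additivity turned for Ccl17 (-0.77 to 0.27), Ccl21a (-0.62 to 3.41), Ccr8 (-0.25 to 0.44), Cxcl13 (-1.73 to 0.17) and Cxcr5 (-0.070 to 1.91). A group left with 1 array is assumed to vary like the others. The alternatives for the marker lists and the other axis genes were chosen after seeing the data.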
